A study of Mus musculus with 6 samples.

Results

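The aryl hydrocarbon receptor (AhR) pathway and its neighbouring xenobiotic enzymes were followed in mouse hippocampus as 10 genes, taken by symbol from the 31838 genes of the deposited table: Ahr, Arnt, Ahrr, Tiparp, Nqo1, Cyp1b1, Cyp2d22, Por, Ephx1 and Ephx2. All 10 were found, and all 10 passed the filter on low counts, which 20428 genes passed. The libraries came from the hippocampus of wild type C57BL/6 mice aged 4 months. The 3 control libraries are labelled corn oil, and the 3 treated ones are labelled as receiving butyl benzyl phthalate (BBP), a phthalate plasticiser, at 50 mg/kg/day. Polyadenylated RNA was sequenced, and the title of the series asks about BBP and cognitive impairment. The labels do not state how long the animals were dosed, nor that the replicates of a group are different animals, so the p-values rest on a spread between libraries that may be technical.

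AhR is a ligand-activated transcription factor that waits in the cytoplasm with HSP90, enters the nucleus when it binds planar aromatic compounds, pairs with ARNT and binds DNA at a core of GCGTG. Its textbook targets include the cytochrome P450 genes Cyp1a1 and Cyp1b1, the quinone reductase gene Nqo1, and a pair of genes whose products restrain the receptor, Ahrr and Tiparp. The remaining enzymes carry out the oxidation of foreign and endogenous lipophilic molecules and the opening of the epoxides that oxidation can leave, and in brain they are found in glia, neurons and the cells of the vessel wall.

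Promoter sequences show where the receptor's core motif lies near some of these genes. RefSeq promoter entries (build GRCm38.p6) were matched for 7 of the 10 genes, the others being Ahr, Cyp2d22 and Ephx2. The 250 bases before the RefSeq start were searched on both strands for GCGTG and for TGACNNNGC, the core of the antioxidant response element; these motifs were scored separately and may overlap. Shown here are the upstream stretches of the restraining genes Ahrr and Tiparp and the target Cyp1b1, and those of Arnt and Nqo1, whose groups did not overlap below. Each is written 5′ to 3′ on the gene's strand and stops before any annotated exon of the gene, with GCGTG, or its reverse complement CACGC, in capitals.
Ahrr, chr13:74292332-74292581, minus strand: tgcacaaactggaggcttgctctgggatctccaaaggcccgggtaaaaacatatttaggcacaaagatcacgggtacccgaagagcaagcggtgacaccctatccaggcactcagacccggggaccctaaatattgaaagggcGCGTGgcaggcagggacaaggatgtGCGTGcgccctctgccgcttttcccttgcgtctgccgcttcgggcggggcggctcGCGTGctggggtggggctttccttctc
Tiparp, chr3:65528197-65528409, plus strand: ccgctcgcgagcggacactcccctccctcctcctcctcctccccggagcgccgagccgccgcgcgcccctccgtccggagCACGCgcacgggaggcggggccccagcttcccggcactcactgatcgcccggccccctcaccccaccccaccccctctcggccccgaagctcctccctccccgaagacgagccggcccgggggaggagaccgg
Cyp1b1, chr17:79715062-79715311, minus strand: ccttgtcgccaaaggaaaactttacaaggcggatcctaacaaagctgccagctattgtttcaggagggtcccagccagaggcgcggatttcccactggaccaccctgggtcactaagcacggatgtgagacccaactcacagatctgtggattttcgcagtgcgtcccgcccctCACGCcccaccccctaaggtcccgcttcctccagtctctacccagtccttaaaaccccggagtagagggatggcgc
Arnt, chr3:95434140-95434387, plus strand: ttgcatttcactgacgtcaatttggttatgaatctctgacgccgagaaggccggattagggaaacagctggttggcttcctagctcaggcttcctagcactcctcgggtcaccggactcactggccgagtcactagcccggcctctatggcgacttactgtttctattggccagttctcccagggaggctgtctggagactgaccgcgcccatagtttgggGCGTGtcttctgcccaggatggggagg
Nqo1, chr8:107403207-107403455, minus strand: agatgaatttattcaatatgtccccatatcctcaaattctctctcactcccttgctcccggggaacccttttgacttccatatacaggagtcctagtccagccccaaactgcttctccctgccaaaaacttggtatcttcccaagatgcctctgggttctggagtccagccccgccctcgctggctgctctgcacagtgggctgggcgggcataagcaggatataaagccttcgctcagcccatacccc
Ahrr held 3 matches to GCGTG, which began at bases -107, -82 and -27 counted from the start. Tiparp held 1, from -170 to -166, Cyp1b1 held 1, from -76 to -72, and Arnt held 1, from -29 to -25. In all, 5 of the 7 promoters searched had at least 1 match, Por being the fifth, against 28.2% of 32851 RefSeq promoter windows of the same length. The RefSeq starts used for Por and Ephx1 lie 19112 and 3335 bases from the gene starts of the deposited table, so their windows belong to other annotated starts. The antioxidant core was found in 1 of the 7 windows, that of Arnt, against 10.2% of all windows. Nqo1 and Ephx1 had no match to either motif in these 250 bases. A match is a run of letters, and binding was not measured.

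No gene of the pathway differed between BBP and corn oil by the test over all genes. In edgeR's quasi-likelihood test with Benjamini-Hochberg adjustment, 0 of the 10 passed an adjusted p of 0.05 (percent called over all 20428 genes: 0), and the adjusted p of the 10 ranged from 0.953 to 0.998. At an unadjusted p under 0.05 there was 1 of the 10, Arnt, where 3.35% of all genes tested lay; DESeq2 gave 0 of the 10 at that level and 0 with an adjusted p under 0.05. Without corn oil library 1, 2 or 3, or without BBP library 2, the count at an unadjusted p under 0.05 was 0, and without BBP library 1 the gene at that level was Cyp2d22 (unadjusted p = 0.0389 in edgeR) in place of Arnt. Without BBP library 3 it was Arnt (edgeR unadjusted p = 0.0149, adjusted p = 0.624). The log2 fold change was positive for 6 and negative for 4 of the 10, with a median of 0.02 beside 0.01 over all genes tested. The 95% interval lay within 2-fold in either direction for all 10 genes, as it did for 69.9% of all genes tested, and within 1.5-fold for 7 of them, as for 50.4%.

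**Figure D1:**
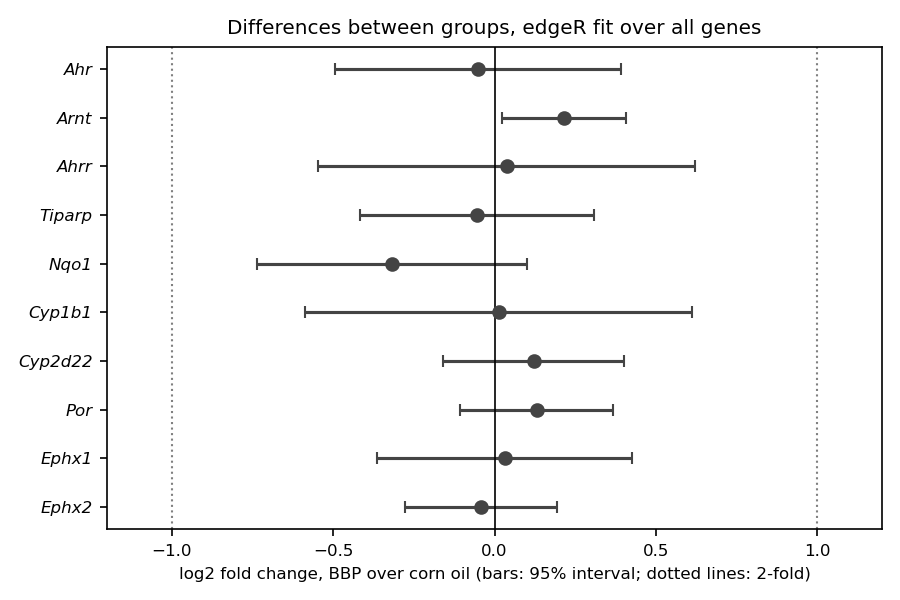
Log2 fold change of each gene, BBP over corn oil (x axis), with bars for the 95% interval of edgeR's fit and dotted lines at 2-fold in either direction. All 10 intervals lie inside the dotted lines, and that of Arnt, from 0.02 to 0.41, is the only one that does not include 0.

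Ahr, the receptor gene (ENSMUSG00000019256, mm10 chromosome 12, 35497974 to 35535038, minus strand), had 1.64, 1.15 and 1.32 FPKM (a level scaled to transcript length and to library size) in corn oil libraries 1 to 3 and 1.05, 1.31 and 1.54 in BBP libraries 1 to 3. The groups overlapped, although the lowest library was of the BBP group and the highest of the corn oil group, and the lowest and highest libraries differed 1.56-fold. Its log2 fold change was -0.05 ± 0.19 (SE), with a 95% interval from -0.50 to 0.39. The sign was not stable, since the value was 0.10 without corn oil library 1 and 0.09 without BBP library 1. Exons of Ahr overlap those of the antisense gene Gm48236, which had at most 3 deposited counts in any library.

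Arnt, the obligate partner that AhR shares with the hypoxia factors (ENSMUSG00000015522, chromosome 3, 95434388 to 95497237, plus strand), stood at 5.05, 4.92 and 4.93 FPKM in corn oil libraries 1 to 3 and at 6.01, 5.59 and 5.43 FPKM in BBP libraries 1 to 3. Every BBP library lay above every corn oil library. The group means were 4.97 ± 0.0724 and 5.68 ± 0.303 FPKM (SD, n = 3 each), a difference of 14.3%. The log2 fold change was 0.22 ± 0.084 (SE), with an unadjusted p of 0.0326 and an adjusted p of 0.953 in edgeR, so it did not pass the test over all genes. Over the 18 alternative settings it lay between 0.15 and 0.27, positive in each, with an adjusted p of at least 0.624. Non-overlap of this kind, higher in BBP, was seen for 4.4% of all genes tested.

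Arnt2, the neuronal relative of Arnt, was the more abundant of the pair per length, with 27.0 ± 0.345 FPKM in controls and 29.9 ± 3.99 after BBP, with a log2 fold change of 0.16 ± 0.090 (SE). BBP library 2 was below the corn oil range for Arnt2, at 25.3 FPKM, and BBP libraries 1 and 3 were above it, at 32.7 and 31.8. On the log2 CPM scale (counts scaled to library size) BBP library 2 lay within that range, at 7.8498 against 7.8264 to 7.8528. The chaperone genes of the cytoplasmic complex were far higher, Hsp90ab1 at 506 ± 20.8 and 498 ± 20.1 FPKM and Hsp90aa1 at 245 ± 10.2 and 234 ± 14.8. Npas1, a neuronal transcription factor that also pairs with ARNT proteins, had 3.88 ± 0.207 FPKM in corn oil and 3.10 ± 0.510 in BBP, with groups that did not overlap and an unadjusted p of 0.0511. Of the 10 tested genes of the complex and of other ARNT partners, 0 passed edgeR's adjusted test, 6 log2 fold changes were positive and 4 negative, and their median was 0.04.

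Neither of the genes that restrain the receptor passed the test, and both had overlapping groups. Ahrr encodes the AhR repressor, which competes for ARNT (ENSMUSG00000021575, chromosome 13, 74211118 to 74292331, minus strand). It was the least abundant of the 10, with 0.120, 0.112 and 0.139 FPKM in controls and 0.117, 0.105 and 0.152 in BBP libraries 1 to 3, from 71 to 106 deposited counts a library. Its log2 fold change of 0.04 ± 0.25 (SE) came with an interval from 0.684-fold to 1.54-fold. It was -0.03 without corn oil library 2 and -0.10 without BBP library 3.

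Tiparp encodes a mono-ADP-ribosyltransferase that modifies AhR and ends its activity (ENSMUSG00000034640, chromosome 3, 65528410 to 65555518, plus strand). It had 4.03, 3.64 and 3.41 FPKM in corn oil libraries 1 to 3 and 2.90, 3.26 and 4.37 in BBP libraries 1 to 3. BBP library 3 held the highest value of all 6 libraries and BBP library 1 the lowest, so the treated group spanned the control range on both sides. The log2 fold change was -0.05 ± 0.16 (SE), and it was 0.02 without corn oil library 1 and 0.08 without BBP library 1. The antisense gene 4931440P22Rik overlaps its exons and had 16 to 74 deposited counts a library, against 894 to 1407 for Tiparp.

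Among the target enzymes, Nqo1 was lower in every BBP library than in every corn oil library, although the difference did not pass. Its product reduces quinones and is induced through AhR and through NRF2 (ENSMUSG00000003849, chromosome 8, 107388225 to 107403206, minus strand). Nqo1 stood at 2.03, 2.15 and 1.85 FPKM in corn oil and at 1.70, 1.37 and 1.70 FPKM in BBP libraries 1 to 3. The means were 2.01 ± 0.152 and 1.59 ± 0.192 FPKM, and the log2 fold change was -0.32 ± 0.18 (SE; edgeR unadjusted p = 0.118, adjusted p = 0.953), the largest in size of the 10. It was negative in all 18 alternative settings, from -0.38 to -0.22. Non-overlap with BBP lower was seen for 5.25% of all genes tested. Nfe2l2, the gene for NRF2, had 2.76, 3.42 and 2.99 FPKM in corn oil and 2.87, 4.59 and 3.56 in BBP libraries 1 to 3, so the library lowest for Nqo1, BBP library 2, was the highest for Nfe2l2.

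Cyp1b1 encodes a P450 that oxidises aromatic hydrocarbons and estradiol (ENSMUSG00000024087, chromosome 17, 79701537 to 79715061, minus strand). Its level was 0.504, 0.368 and 0.415 FPKM in corn oil libraries 1 to 3 and 0.330, 0.364 and 0.591 in BBP libraries 1 to 3. The group means were 0.429 ± 0.0688 and 0.428 ± 0.142 FPKM, while the highest library, BBP library 3, was 1.79-fold above the lowest, BBP library 1. That is the widest range of the 10 genes, and it lay within the treated group. The log2 fold change was 0.01 ± 0.26 (SE), or between 0.666-fold and 1.53-fold, and it was -0.25 without BBP library 3.

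Cyp1a1, the most AhR-responsive P450 gene in other tissues, was too low to test, with 4, 11 and 4 deposited counts in corn oil and 8, 10 and 8 in BBP libraries 1 to 3. A small difference in Cyp1a1 was thus not detectable at this depth. The wider list had 10 genes of the AhR battery in the table, Cyp1a1 included, and 7 were tested. Of these 7, 0 passed edgeR's adjusted test and 5 were positive. Their median log2 fold change was 0.30, within a range from -1.24 to 1.22, and some of the 7 had a library with 0 counts. Ugt1a6a, a glucuronosyltransferase gene, had 0.766 ± 0.270 FPKM in corn oil and 0.397 ± 0.136 in BBP (log2 fold change -0.91 ± 0.36, SE, edgeR unadjusted p = 0.0346, adjusted p = 0.953), with overlapping groups. Its neighbour Ugt1a7c, which shares exons with it at the same locus, had 0.119 ± 0.0842 and 0.284 ± 0.191 FPKM and a log2 fold change of 1.22 ± 0.60, so how fragments were divided between them makes either value uncertain. Xdh, the xanthine dehydrogenase gene, had 0.691 to 0.914 FPKM in 5 libraries and 1.97 in BBP library 3.

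**Figure D2:**
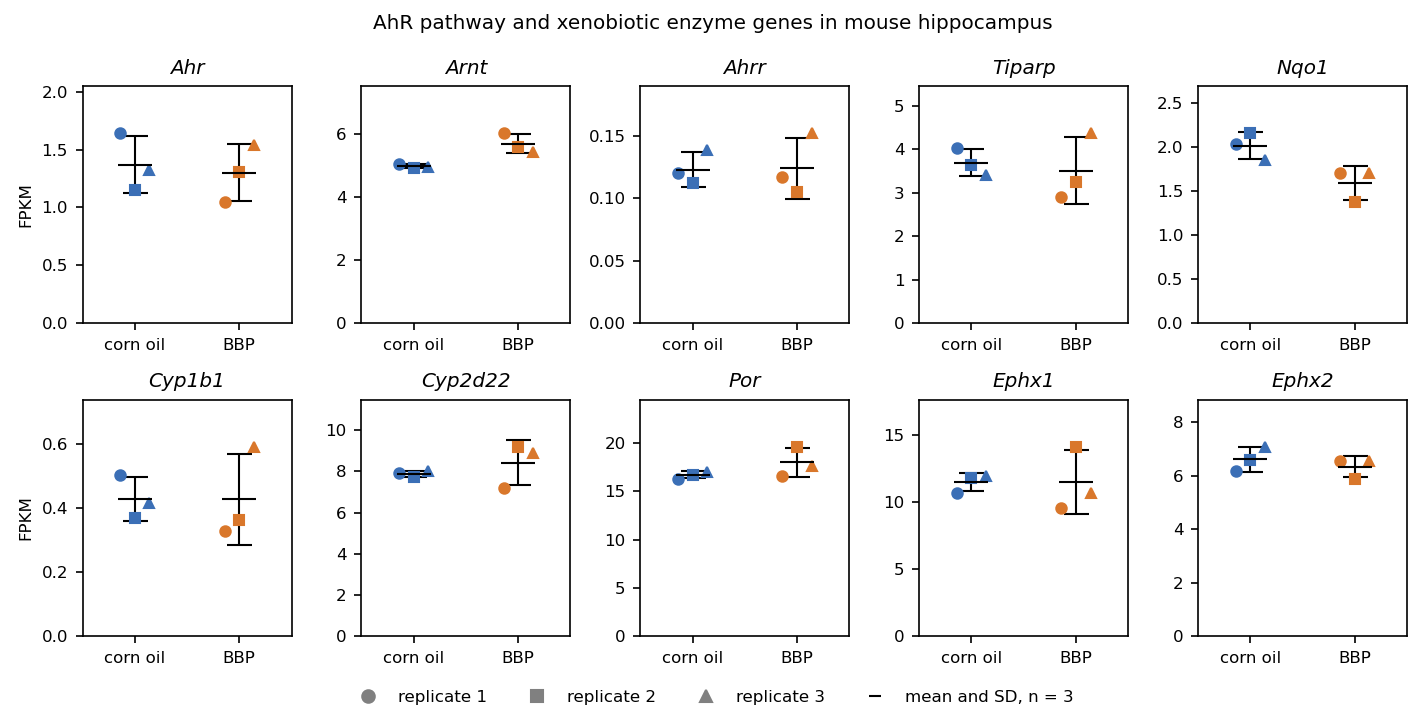
FPKM of each gene (y axis, from 0) in the corn oil and BBP groups; points are libraries, with a symbol for each replicate number, and black lines are the mean and SD of 3 libraries. Arnt lies higher and Nqo1 lower in all 3 BBP libraries, and the other 8 genes overlap.

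Por encodes the reductase that passes electrons from NADPH to microsomal P450s (ENSMUSG00000005514, chromosome 5, 135670033 to 135735326, plus strand) and was the most abundant of the 10. It had 16.3, 16.7 and 17.0 FPKM in corn oil and 16.6, 19.6 and 17.6 in BBP libraries 1 to 3. The log2 fold change of Por was 0.13 ± 0.10 (SE, edgeR adjusted p = 0.953), and it was 0.02 without BBP library 2, the library with the highest value.

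Cyp2d22, the brain-expressed member of the mouse Cyp2d cluster (ENSMUSG00000061740, chromosome 15, 82370527 to 82380260, minus strand), stood at 7.92, 7.73 and 7.99 FPKM in corn oil libraries 1 to 3. In BBP libraries 1 to 3 it stood at 7.19, 9.18 and 8.88 FPKM, with BBP library 1 below the whole corn oil range and the other two above it. Its log2 fold change was 0.12 ± 0.12 (SE, edgeR adjusted p = 0.953), 0.24 without BBP library 1 and 0.01 without BBP library 2. The similar genes Cyp2d9 and Cyp2d26 had at most 9 and 17 deposited counts in any library, so few fragments were assigned to these copies.

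Of 23 other P450 genes tested, 0 passed edgeR's adjusted test, 13 were positive and the median log2 fold change was 0.03. The most abundant was Cyp46a1, the neuronal cholesterol 24-hydroxylase gene, with 48.4 ± 5.66 FPKM in controls and 48.5 ± 8.73 after BBP. Cyp7b1, an oxysterol and neurosteroid hydroxylase gene, had 7.89 ± 1.13 and 7.48 ± 2.56 FPKM. Cyp11a1, the side-chain cleavage enzyme gene of steroid synthesis, had 0.490 ± 0.0760 and 0.761 ± 0.239 FPKM with groups that did not overlap, and Cyp2s1 had 0.617 ± 0.0729 and 0.933 ± 0.230. Their unadjusted p values were 0.0321 and 0.0317, and both had an adjusted p of 0.953 in edgeR.

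Of 9 other electron donors and carriers tested, 8 were negative, the median log2 fold change was -0.08 beside 0.01 over all genes tested, and 0 passed edgeR's adjusted test. Pgrmc1, a heme-binding partner of P450s, averaged 161 ± 13.6 FPKM in controls and 124 ± 23.5 in the BBP group, a log2 fold change of -0.36 ± 0.12 (SE, edgeR unadjusted p = 0.0174, adjusted p = 0.953). All 3 BBP libraries lay below the corn oil libraries for Pgrmc1, at 121, 103 and 149 against 155, 152 and 177 FPKM. Cyb5r1, a cytochrome b5 reductase gene, had 5.16 ± 0.417 and 4.49 ± 0.0936 FPKM, also with no overlap. These were the 2 of the 9 with groups that did not overlap, and non-overlap with BBP lower was seen for 5.25% of all genes tested.

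Of the epoxide hydrolase genes, Ephx1 varied widely within BBP and Ephx2 little in either group. Ephx1 encodes the microsomal enzyme that detoxifies xenobiotic epoxides (ENSMUSG00000038776, chromosome 1, 180976210 to 181020904, minus strand). It had 10.7, 11.8 and 11.9 FPKM in corn oil libraries 1 to 3 and 9.58, 14.1 and 10.7 in BBP libraries 1 to 3. BBP library 2 was the highest of the 6 and BBP library 1 the lowest, and both group means were 11.5 FPKM, with an SD of 0.685 in corn oil and 2.38 in BBP. Its log2 fold change was 0.03 ± 0.17 (SE), and it was -0.20 without BBP library 2 and -0.02 without corn oil library 1.

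Ephx2 encodes the soluble epoxide hydrolase, which turns over signalling epoxides of arachidonic acid (ENSMUSG00000022040, chromosome 14, 66084374 to 66112386, minus strand). It had 6.16, 6.57 and 7.07 FPKM in corn oil and 6.56, 5.88 and 6.54 in BBP libraries 1 to 3. The BBP values of Ephx2 overlapped the corn oil values, and its range of log2 CPM over the 6 libraries, 0.19, was the smallest of the 10 genes. Its log2 fold change was -0.04 ± 0.10 (SE), with an interval from 0.826-fold to 1.14-fold. The related Ephx4 was more abundant per length, with 23.5 ± 1.18 FPKM in controls and 25.3 ± 7.03 after BBP, with 33.3 in BBP library 1.

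In order of mean FPKM over all libraries, Por was the highest, followed by Ephx1, Cyp2d22, Ephx2, Arnt, Tiparp, Nqo1, Ahr, Cyp1b1 and Ahrr. The ranges over the 6 libraries overlapped between neighbours for Ephx2 and Arnt, at 5.88 to 7.07 and 4.92 to 6.01 FPKM, and for Nqo1 and Ahr, at 1.37 to 2.15 and 1.05 to 1.64 FPKM, and for no other neighbouring pair.

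Groups did not overlap for 2 of the 10 genes, Arnt and Nqo1, against 9.65% of all genes tested. Without BBP library 1 that count was 4, with Cyp2d22 and Por higher in BBP, against 23.7% of all genes. Without BBP library 3 it was also 4, with Tiparp and Cyp1b1 lower, against 25.1%. The coefficient of variation of FPKM was larger within BBP than within corn oil for 9 of the 10 genes, the exception being Ephx2. Over all genes tested it was larger within BBP for 72.4%, and the median coefficient of variation was 7.23% in corn oil and 15.8% in BBP over the 10 genes, beside 10% and 17.9% over all genes tested.

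The scatter within BBP took different shapes. Cyp1b1, Ahr and Tiparp were each lowest in BBP library 1, at -0.37, -0.37 and -0.35 relative to the corn oil mean on the log2 CPM scale, counts scaled to library size, and each was among its highest in corn oil library 1 and BBP library 3. In BBP library 3 they stood at 0.44, 0.16 and 0.22. Ephx1, Por and Cyp2d22 were each highest in BBP library 2, at 0.40, 0.33 and 0.32, where Nqo1 was at its lowest, -0.45. Arnt differed from both sets, at 0.27, 0.27 and 0.10 in BBP libraries 1 to 3.

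**Figure D3:**
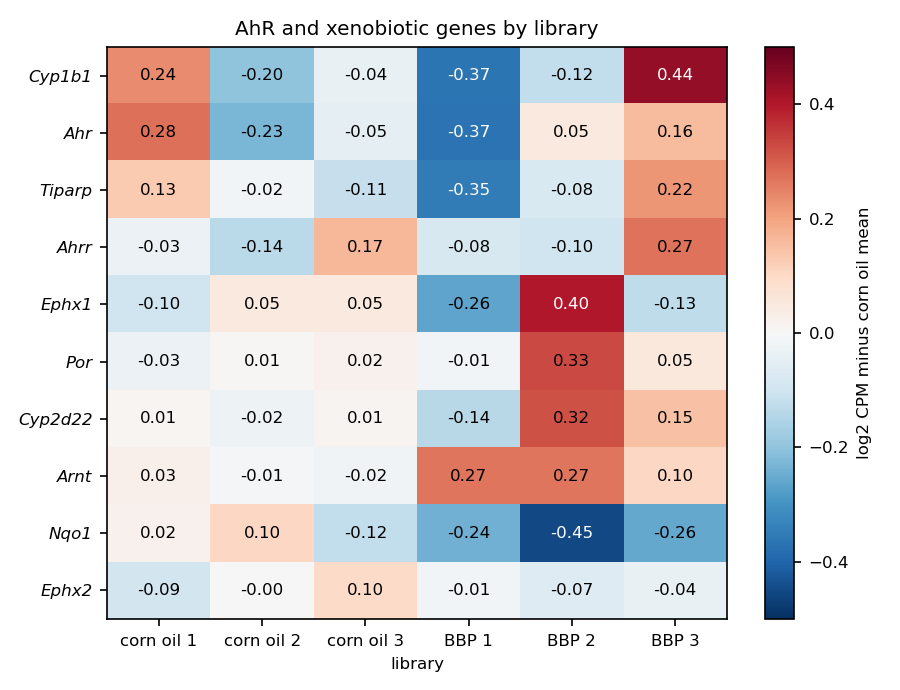
Log2 CPM of each gene (rows) in each library (columns) minus the corn oil mean; red is higher and blue lower, and the number is the difference. Cyp1b1, Ahr and Tiparp are low in BBP library 1, and Ephx1, Por and Cyp2d22 are high in BBP library 2.

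For the genes with the widest range, those with the most similar course over the 6 libraries were sought among 11743 named genes with a mean of at least 1 FPKM, by the root mean square difference between mean-centred log2 CPM. For Cyp1b1 these were Fbxo4 (0.07), Tmem200a (0.09) and Fzd7 (0.10). For Ahr they were Nts (0.05), Frg2f1 (0.06) and Fgf10 (0.06). For Ephx1 they were Lsm12 (0.04), Trp53 (0.04) and Cyp4f14 (0.04), the last a fatty acid P450 with 2.21 FPKM in BBP library 1 and 3.16 in BBP library 2. With so many candidates and 6 libraries, close matches are a description of these libraries.

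Levels in whole hippocampus also move with the cells that were dissected, and in bulk tissue fewer cells of a type and less RNA per cell cannot be told apart. BBP library 1 stood apart in its regional markers: 10 hippocampal neuron markers summed to 88.6 FPKM there and to 137 to 175 in corn oil and 147 and 177 in BBP libraries 2 and 3. Markers of striatal neurons summed to 188 FPKM in BBP library 1, to 91.8 in corn oil library 3 and to 44.9 to 50.6 in the remaining libraries. Corn oil library 3 also had the lowest hippocampal neuron sum of its group, 137 FPKM. BBP library 1 was the library in which Ahr, Cyp1b1, Tiparp, Ephx1 and Cyp2d22 were lowest. BBP library 2 had 11.5% of its counts in mitochondrial genes, against 7.11% to 8.57% elsewhere. Meningeal fibroblast markers, with 6 of 10 positive, summed to 21.6, 15.9 and 19.2 FPKM in corn oil libraries 1 to 3. In BBP libraries 1 to 3 they summed to 15.3, 12.2 and 28.9 FPKM, highest in the library in which Cyp1b1 was highest. The corn oil libraries ranked the same for these markers as for Cyp1b1 (0.504, 0.368 and 0.415 FPKM). The markers were lowest in BBP library 2, whereas Cyp1b1 was lowest in BBP library 1. Mural cell markers, 10 of 10 positive, summed to 46.0 to 51.5 FPKM in corn oil and 45.0 to 59.9 in BBP. Endothelial markers, 8 of 10 positive, ranged from 71.0 to 78.7 and from 63.2 to 85.6 FPKM. The lowest sum, 63.2, was that of BBP library 2. The median endothelial marker stood at 0.32, 0.12 and 0.08 in BBP libraries 1 to 3, relative to the corn oil mean of log2 CPM. Astrocyte markers, 9 of 10 positive, summed to 564 to 596 and 601 to 643 FPKM, and microglia markers, 7 of 10 positive, to 185 to 206 and 178 to 215. Oligodendrocyte markers, 10 of 10 positive with a median log2 fold change of 0.37, summed to 525, 717 and 545 FPKM in corn oil and to 843, 851 and 584 in BBP libraries 1 to 3. They were highest in BBP libraries 1 and 2, in which Arnt was also highest. Corn oil library 2, with the third highest sum (717), had 4.92 FPKM of Arnt, however, against 5.43 in BBP library 3 (584). Red blood cell markers, 5 of 5 positive with a median of 0.52, summed to 170 to 276 and 246 to 399 FPKM. Markers of choroid plexus epithelium, 0 of 10 positive, summed to 5.67 to 10.5 and 4.79 to 6.41 FPKM, and none of these lists had a marker at 0 in every library. The part of these differences in the levels of the 10 genes was not tested.

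**Figure D4:**
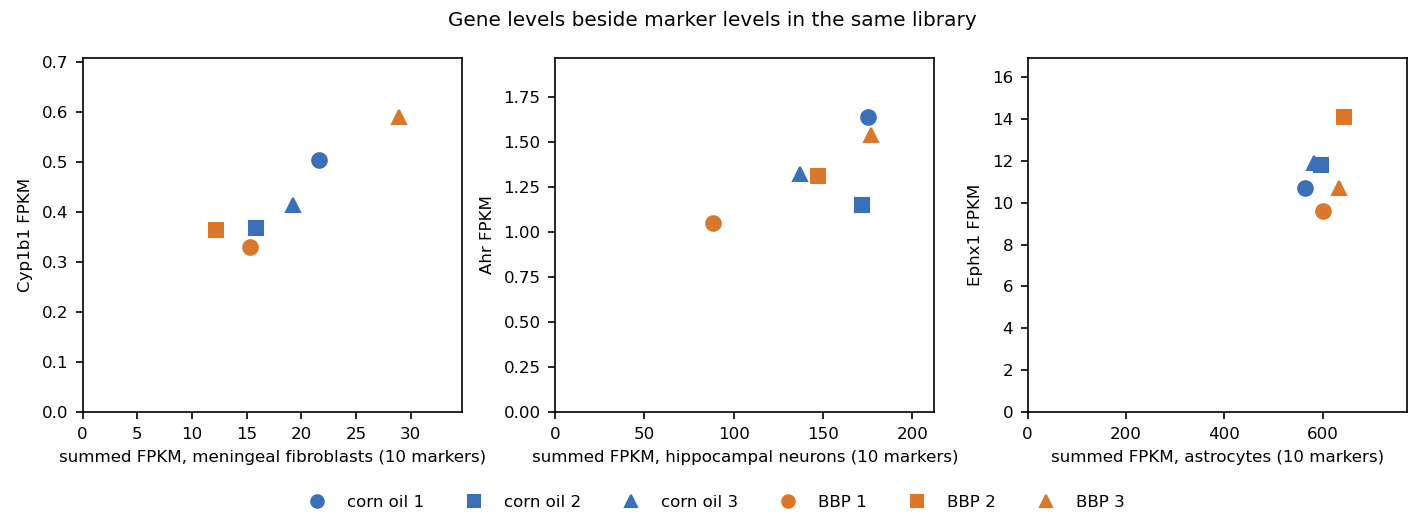
FPKM of Cyp1b1, Ahr and Ephx1 (y axes, from 0) against the summed FPKM of 10 marker genes each of meningeal fibroblasts, hippocampal neurons and astrocytes (x axes, from 0); each point is a library. BBP library 3 is highest for Cyp1b1 and for the fibroblast markers (28.9), and BBP library 1 is lowest for Ahr and for the hippocampal neuron markers (88.6). Corn oil libraries 1, 3 and 2 fall in the same order for Cyp1b1 (0.504, 0.415 and 0.368 FPKM) and for the fibroblast markers (21.6, 19.2 and 15.9). BBP libraries 1 and 2 do not: fibroblast markers are lowest in BBP library 2 (12.2), but Cyp1b1 is lowest in BBP library 1. Corn oil library 2 has 1.15 FPKM of Ahr with hippocampal neuron markers at 172. Ephx1 and the astrocyte markers are both highest in BBP library 2, at 14.1 FPKM and 643. Ephx1 is lowest in BBP library 1 (9.58), where astrocyte markers sum to 601, against 564 to 596 in corn oil.

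Of 132 further genes listed in 10 classes, 119 were in the table and 105 were tested, of which 0 passed edgeR's adjusted test in either direction. At an unadjusted p under 0.05 there were 8, or 7.62%, beside the 3.35% of all genes tested. Their log2 fold changes were positive for 57 and negative for 48, with a median of 0.03. Groups did not overlap for 10 of the 105, 2 higher and 8 lower in BBP, a share close to the 9.65% of all genes tested (4.4% higher and 5.25% lower).

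Of the conjugating enzymes, Gsta4 and Gstp1, both glutathione transferase genes, had no BBP library as high as a corn oil library. Gsta4, whose product detoxifies 4-hydroxynonenal, had 29.8, 29.6 and 33.5 FPKM in corn oil and 21.8, 23.5 and 28.4 in BBP libraries 1 to 3, with no overlap (log2 fold change -0.31 ± 0.11, SE, edgeR unadjusted p = 0.0235, adjusted p = 0.953). Gstp1 had 90.3 ± 3.40 and 79.5 ± 6.27 FPKM. Gstm1 had 141 ± 12.5 and 151 ± 38.2 FPKM, with 194 in BBP library 2, and Sult4a1, a brain sulfotransferase gene, had 151 ± 3.63 and 138 ± 28.1. Of 19 genes tested in this class, 9 were positive and 10 negative, with a median of -0.03. Groups did not overlap for 3 of the 19, Gsta4 and Gstp1 among them, all lower in BBP. Non-overlap with BBP lower was seen for 5.25% of all genes tested.

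Esterases can hydrolyse phthalate diesters, and 6 of those listed were tested. Of the 6, 5 log2 fold changes were positive and 1, that of Lpl, was negative. Their median was 0.21, and 0 passed edgeR's adjusted test. Lpl, the lipoprotein lipase gene, had 2.56 ± 0.378 FPKM in corn oil and 2.05 ± 0.386 in BBP (edgeR unadjusted p = 0.110), and Bche, the butyrylcholinesterase gene, 0.389 ± 0.0745 and 0.527 ± 0.0933 (unadjusted p = 0.0832). Among genes of aldehyde and alcohol metabolism, Aldh2 had 15.6 ± 0.267 and 15.2 ± 1.37 FPKM, and Adh5 had 8.40 ± 0.317 and 7.53 ± 1.43.

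Among the transporters of the blood-brain barrier, Abcb1a, which encodes the efflux pump P-glycoprotein, had 3.05, 3.37 and 3.89 FPKM in corn oil and 4.09, 3.87 and 4.38 in BBP libraries 1 to 3 (log2 fold change 0.28 ± 0.11, SE, edgeR unadjusted p = 0.0382, adjusted p = 0.953). The uptake transporter Slco1a4 had 6.31 ± 0.358 and 5.05 ± 1.24 FPKM. Of the nuclear receptors that sense lipids and plasticiser metabolites, Pparg had 0.333 to 0.488 FPKM in corn oil and 1.28, 0.444 and 0.581 in BBP libraries 1 to 3, with the highest value in the library rich in striatal markers. Ppard had 2.07 ± 0.305 and 2.63 ± 0.331 FPKM, with overlapping groups. The unadjusted p in edgeR was 0.0435 for Pparg and 0.0447 for Ppard, and both had an adjusted p of 0.953.

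**Figure D5:**
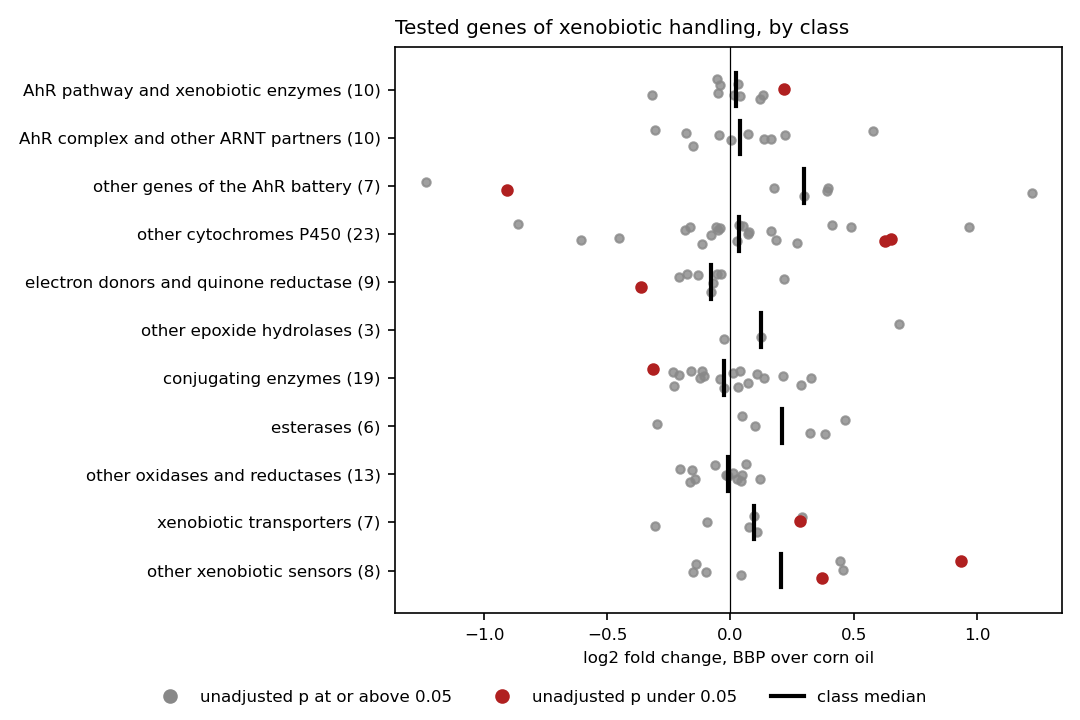
Log2 fold change, BBP over corn oil (x axis), of each tested gene in the 10-gene set (top row) and the wider classes (number tested in brackets); black bars are class medians and red points have an unadjusted p under 0.05. The 10 genes have a median of 0.02, and no point passes the adjusted test.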

How the data were processed

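The 10 genes and the wider lists were chosen with earlier results of these data known. Trizol RNA was selected on oligo(dT) and made into dUTP libraries with molecular identifiers, per the labels' protocols. Tools named in the submitters' processing notes, without role or order, are HISAT2 (2.2.1), StringTie (2.1.6), cutadapt (1.9), edgeR, DESeq2 and UMI-tools, with the build mm10. Per the file headers, the authors deposited counts and FPKM for each gene and library. The deposited counts were treated as estimated counts: they are whole numbers, but a count of 4 was commoner than 3 or 5 in every library (1085, 650 and 361 genes in corn oil library 1), so a count is not a fragment. They summed to 62477604 to 68422361 a library. How they were counted, and on which strand, is not given in the sources used here.

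Groups follow the labels. The main test was edgeR 4.0.16 (R 4.3.3; TMM, filterByExpr, quasi-likelihood F test, treatment only) over all genes, with Benjamini-Hochberg adjustment. The standard error is the size of the log2 fold change divided by the root of F. Log2 CPM used a prior count of 2. The alternatives were DESeq2 1.42.0, limma 3.58.1 on log2(FPKM + 1), other scalings and filters, a replicate block and leaving out each library. Fold changes from limma are on the log2(FPKM + pseudocount) scale, which understates changes of low genes. Named genes are the 10, the 2 with the smallest p and the 2 with the highest FPKM of each wider class, from which the text gives most, and the genes most like the 3 with the widest range. Cyp1a1, Cyp2d9 and Cyp2d26 were added as an untested target and near copies. The fit was tested on simulated data. Exon overlaps used GENCODE M21, on the same build. Figures were drawn with matplotlib 3.10.9.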

Additional observations from a re-analysis of the deposited data

How the results depend on the processing

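All 18 alternatives gave 0 of the 10 genes and 0 of the wider list past an adjusted p of 0.05; Ahrr and Cyp1b1 were not tested in the fit limited to a mean FPKM of at least 1. Over all genes, edgeR called 0, with 685 at an unadjusted p under 0.05, while DESeq2 called 3 and the fits that leave out 1 library called 0 to 3 (1 without corn oil library 2 and 3 without BBP library 1). The count of the 10 at an unadjusted p under 0.05 was 0 in DESeq2 and in the fit with the replicate block. It was also 0 in limma on log2(FPKM + 1) with a filter, log2(FPKM + 0.1) and log2(TPM + 1). Limma on log2(FPKM + 1) with no filter gave 1, Arnt (unadjusted p = 0.0386). The count was 0 to 1 when a library was left out. The count with groups that do not overlap was then 2 to 4. Same-numbered libraries deviated from their group means with correlations of -0.08, 0.08 and -0.10, so the numbers were not taken as pairs. With the replicate block the log2 fold change of Cyp1b1 was -0.0141, and 494 genes lay at an unadjusted p under 0.05.

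Of 178 single-gene values under the alternatives, 156 kept the sign and 22 did not, none of them past the threshold. Cyp1b1 was -0.004 in limma on log2(FPKM + 1), with and without a filter, -0.0258 with a pseudocount of 0.1 and -0.0286 on TPM. Ephx1 was -0.0165, -0.0165, -0.019 and -0.0482 in the same fits, and Ahrr was -0.0032 on TPM. When 1 library was left out, the log2 fold change ran from -0.16 to 0.10 for Ahr, from -0.10 to 0.13 for Ahrr, from -0.21 to 0.0768 for Tiparp, from -0.25 to 0.18 for Cyp1b1, from -0.20 to 0.16 for Ephx1 and from -0.0856 to 0.0106 for Ephx2. The cause of the sign changes was not tested. The lowest counts behind a value were those of Ahrr, Cyp1b1 and Nqo1, with 71 to 255 deposited counts a library.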
